A study of Mus musculus with 9 samples.

Results

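Blood vessels of the newborn mouse cortex were followed through 35 named genes, 28 that mark endothelial cells and 7 that mark mural cells, the pericytes and smooth muscle cells that wrap the endothelial tube. Members were taken by gene symbol from both deposited tables of bulk RNA sequencing, which list 22496 genes (ShhN IUE with wild type) and 23624 genes (SmoM2 with wild type). Of the 35, 34 had a row in both tables, 27 endothelial and 7 mural. The symbol Robo4b had none and was not analysed here; the gene listed as Robo4 was kept as a gene outside the members.

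The 9 libraries came from cortex dissected at postnatal day 0, with 3 libraries in each of 3 groups. In the ShhN IUE group, ShhN stands for the signalling fragment of Sonic hedgehog and IUE is the usual abbreviation of in utero electroporation, which puts a plasmid into cells that line the ventricle. In the SmoM2 group, mice carried hGFAP-Cre and 1 conditional SmoM2 allele, a constitutively active form of Smoothened, the transducer of hedgehog signals. The hGFAP-Cre transgene uses a human GFAP promoter, which is active in cortical radial glia and so reaches their descendants. The third group held wild-type littermates. All 3 groups were on mixed C57BL/6J, 129S6 and CD1 stock. The labels do not say whether the wild-type littermates were electroporated too; if they were not, the procedure and the signal cannot be told apart in the ShhN IUE group. The labels also give no litter or animal number, and the spread behind each p-value may be technical.

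Brain endothelial cells form the blood-brain barrier. They seal their contacts with tight junctions, suppress vesicle transport and pump foreign compounds back into the blood. Vessels grow into the embryonic cortex under vascular endothelial growth factor, are stabilised by pericytes drawn in through platelet-derived growth factor B, and acquire barrier character under WNT7 signals from neural progenitors. Apelin, a peptide made by sprouting endothelial tip cells, acts on the apelin receptor of neighbouring endothelial cells.

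The libraries held 15376071 to 19604672 gene counts in ShhN IUE, 23625702 to 26923127 in SmoM2 and 18610507 to 21694348 in wild type. The hedgehog target Gli1 averaged 40.9 ± 24.3 CPM (counts per 1e+06 counts, after TMM scaling) in ShhN IUE cortex and 7.51 ± 1.75 CPM in wild-type cortex, and 46.7 ± 3.697 CPM in SmoM2 cortex and 7.496 ± 1.77 CPM in wild-type cortex (SD, n = 3 each). It rose in both comparisons (edgeR quasi-likelihood test, adjusted p = 0.00369 and 0.000159). Both comparisons use the same 3 wild-type libraries, each with the values of its own table, so same-direction changes in both are not independent. For 28 of the 34 members these wild-type values agree between tables, within 0.1 on the log2 scale, and for Egfl7, Eng, Erg, Ly6c1, Pecam1 and Sox17 they do not.

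In ShhN IUE and in wild type, but not in SmoM2, 1 library held the highest values of most vessel genes. ShhN IUE library 3 had the highest value of its group for 31 of 34 members, and library 2 the lowest for 21. Wild-type library 2 was the highest for 29 of 34 in one table and 30 of 34 in the other. SmoM2 libraries 1 to 3 were the highest for 15, 13 and 6 members. The summed level of all 34 members was 657 CPM in ShhN IUE library 1, 570.4 CPM in library 2 and 993 CPM in library 3, against 507, 854 and 586 CPM in wild-type libraries 1 to 3. In the SmoM2 libraries the sum was 743, 693.5 and 691 CPM, against 509.7, 867 and 579.8 CPM in wild type. The same libraries were the highest for genes of meninges and fibroblasts, cells that cover the cortex and can come along in a dissection. The 12 genes of that list summed to 166, 190.3 and 1144 CPM in the ShhN IUE libraries 1 to 3, against 135, 1009 and 377 CPM in wild type. In SmoM2 they summed to 665, 407 and 528 CPM, against 122, 861 and 357 CPM in wild type. Vascular basement membrane genes were highest there too, at 3215 CPM in ShhN IUE library 3 and 1997 CPM in wild-type library 2. So were the lists of microglial, other mural, other endothelial and vascular growth factor genes. Blood genes were highest in wild-type library 2 but lowest in ShhN IUE library 3. Cell cycle, neuron and WNT7 and norrin lists were not highest in both libraries. The hedgehog target Gli1 was also highest in ShhN IUE library 3 and wild-type library 2. It had 26.0, 27.7 and 68.9 CPM in ShhN IUE libraries 1 to 3, against 5.65, 9.13 and 7.75 CPM in wild type. Ptch1, a further hedgehog target, was highest in ShhN IUE library 3 too, but among wild-type libraries it was highest in library 3. The part of the meningeal genes, of these other lists or of the hedgehog response in the members' values was not tested.

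**Figure D1:**
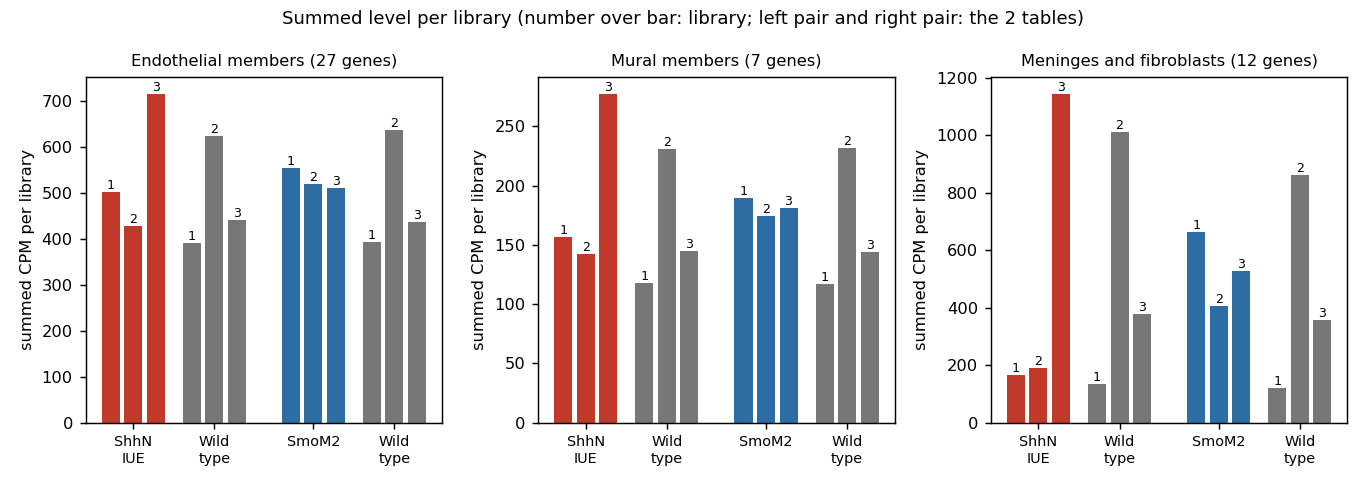
Summed level (CPM, y axis from 0) of the 27 endothelial members, the 7 mural members and the 12 genes of meninges and fibroblasts; each bar is 1 library, numbered above, with ShhN IUE and SmoM2 each beside the wild type of its own table. ShhN IUE library 3 and wild-type library 2 stand highest in their groups in all 3 panels, and the 3 SmoM2 bars are nearly level for the members.

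The spread within groups followed this. The median coefficient of variation over the 34 members was 29.6% in ShhN IUE and 23.6% in the wild type of that table, and 8.22% in SmoM2 and 28.1% in the wild type of that table. Acta2, the smooth muscle actin, varied most in ShhN IUE, at 107%, and in wild type, at 98.9% and 99.2%. Slco1c1, a thyroid hormone transporter of the barrier, varied least in SmoM2, at 0.505%.

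Levels can be compared between genes only per length of transcript, and here by the FPKM values (fragments scaled by transcript length and depth) that the authors deposited. In wild-type cortex of the ShhN IUE table, Cldn5, the main tight junction claudin of brain endothelium, was the highest member at 32.6 ± 11.2 FPKM. Itm2a, a membrane protein rich in brain endothelium, followed at 26.0 ± 11.9 FPKM and Rgs5, a regulator of G protein signalling in pericytes, at 14.5 ± 6.24 FPKM (SD, n = 3 each). In each of the 3 wild-type libraries Cldn5 was above Itm2a, with 23.1, 45.0 and 29.6 FPKM for Cldn5 and 16.1, 39.3 and 22.6 FPKM for Itm2a. Mfsd2a had 8.78 ± 0.609 FPKM and Vtn, which encodes vitronectin of brain pericytes, had 7.41 ± 4.63 FPKM. Slco1a4, an organic anion transporter, was nearly at the bottom with 0.115 ± 0.0768 FPKM, and Ly6a was lowest with 0.0997 ± 0.0212 FPKM. Both cell types' defining members were thus measured in cortex, with the lowest count of any member in any library at 5.

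In ShhN IUE cortex, genes of the vessel wall changed in both directions. Of the 33 members that could be tested, 5 rose (Apln, Flt1, Eng, Mfsd2a and Pdgfrb) and 3 fell (Aplnr, Abcb1a and Abcg2), while 25 did not pass the test (edgeR, adjusted p at a threshold of 0.05 over all genes). This is 24.2% of the members, where 33.3% of all 16180 genes tested were called, 16.1% higher and 17.2% lower. The members' share therefore does not exceed that of all genes. Their median log2 fold change was -0.0025, and that of all genes was -0.0038. By role, the calls fell on 1 of 2 ligands, 3 of 7 receptors tested, 3 of 7 barrier and transport genes, and 1 of 7 mural genes. None of the 7 surface and secreted proteins tested or of the 3 transcription factors passed. Ly6a, at 0.231 ± 0.128 FPKM in ShhN IUE and 0.0997 ± 0.0212 FPKM in wild type, was too low to be tested. The count was 4 without ShhN IUE library 1, 5 without wild-type library 1 and 3 without wild-type library 3. The count of all genes also dropped, from 5380 with every library to 3251, 4412 and 4099 at these settings. Without both ShhN IUE library 3 and wild-type library 2, where most members were highest, 4 members rose and 2 fell. Of all genes, 3258 were called without both. In bulk tissue, fewer cells of a type and less RNA per cell cannot be told apart, and the cell type that a member's RNA came from is not known.

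In SmoM2 cortex the only member called against wild type was Apln, which rose; 33 of the 34 tested did not pass and none fell. That is 2.94% of the members, where 18.9% of all 16485 genes tested were called, 9.59% higher and 9.29% lower. The members' median log2 fold change was 0.045, and that of all genes was -0.0072. At an unadjusted edgeR p under 0.05, 3 of 34 members pass in SmoM2 and 12 of 33 in ShhN IUE. The share of all genes at that threshold was not counted, so these numbers say nothing particular about the members. DESeq2 also called 1 member in SmoM2 cortex. This count rests on wild-type library 2. Without it, 8 members rose, Apln, Eng, Pdgfrb, Acta2, Tek, Esam, Vtn and Slco1a4. Their edgeR adjusted p ran from 0.00347 for Acta2 to 0.0468 for Slco1a4. Of all genes, 3010 were called without that library and 3112 with it. The library was the highest of its group for 30 of 34 members, so leaving it out lowers the wild-type level and favours rises.

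**Figure D2:**
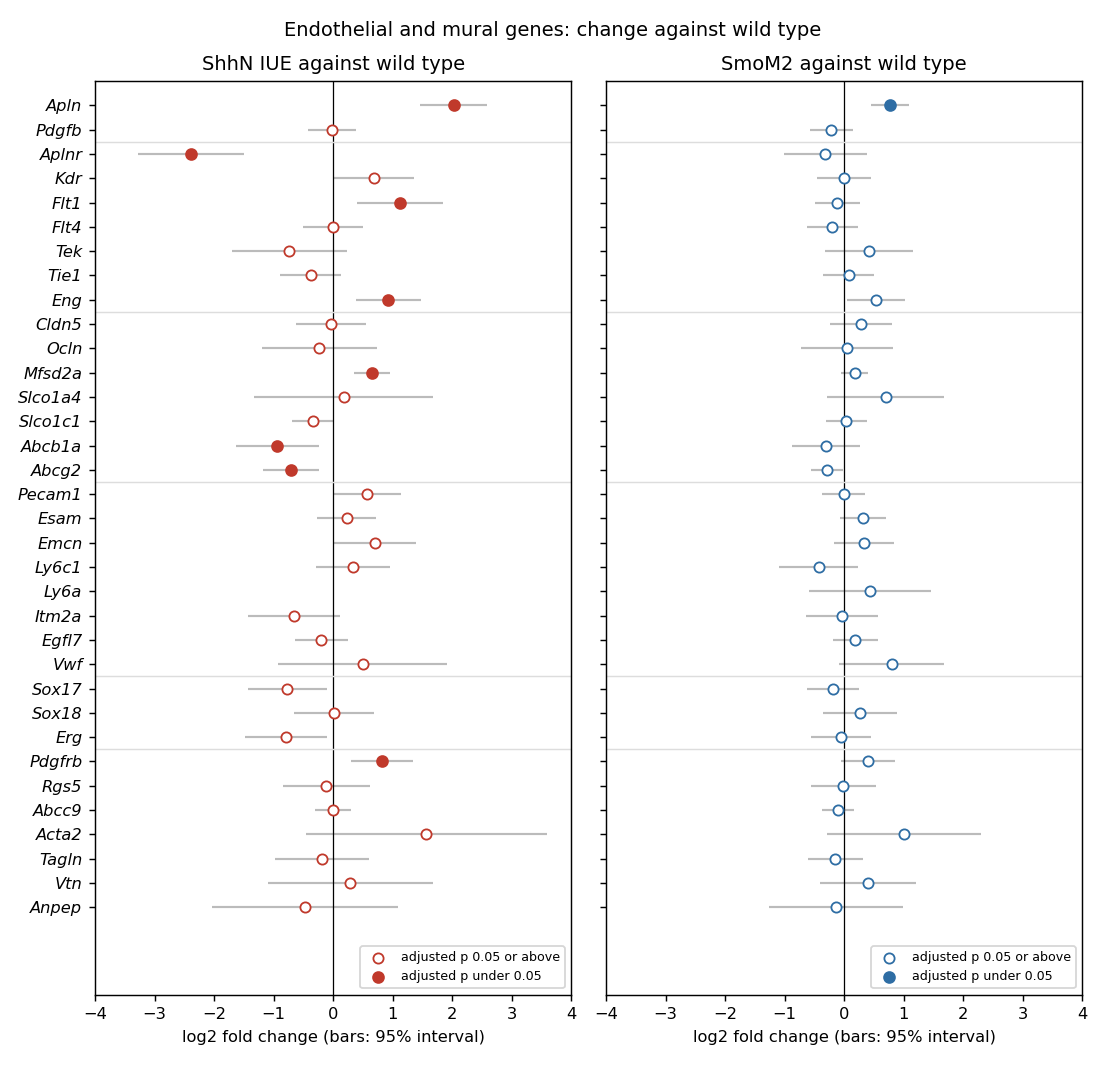
Log2 fold change against wild type (x axis) of each member (y axis) in ShhN IUE and in SmoM2, with 95% intervals as bars and filled points for adjusted p under 0.05; grey lines part ligands, receptors, barrier genes, surface proteins, transcription factors and mural genes. Apln and Aplnr are the farthest from 0 among the members called in ShhN IUE, on opposite sides, and Apln is the only filled point in SmoM2.

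Apelin and its receptor showed the largest changes among the called members. Apln (chromosome X, 48025146 to 48034853 in GRCm38, as deposited) had 40.4, 25.0 and 50.3 CPM in ShhN IUE libraries 1 to 3, against 10.2, 8.86 and 9.34 CPM in wild type. The groups did not overlap. The log2 fold change was 2.02 ± 0.25 (SE), or 4.07-fold, with an edgeR adjusted p of 0.00134. In SmoM2 cortex Apln had 15.6, 17.7 and 14.95 CPM, against 10.2, 8.87 and 9.30 CPM in wild type. All 3 SmoM2 libraries lay above all wild-type ones, and the gene rose 1.70-fold, a log2 fold change of 0.77 ± 0.14 (edgeR adjusted p = 0.00802). The rise was smaller in SmoM2 than in ShhN IUE: in a joint fit of all 9 libraries, SmoM2 lay below ShhN IUE by a log2 difference of -1.27 ± 0.21 (edgeR adjusted p = 0.00366).

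Aplnr, the apelin receptor (chromosome 2, 85136225 to 85139923), had 3.66, 6.77 and 6.01 CPM in ShhN IUE, against 16.9, 44.5 and 24.2 CPM in wild type. The highest ShhN IUE library was well under the lowest wild-type one, although wild-type library 2 was far above the other two. Aplnr fell, with a log2 fold change of -2.38 ± 0.39 and an edgeR adjusted p of 0.00357, which is 5.22-fold lower. SmoM2 libraries had 24.4, 20.7 and 23.5 CPM, against 16.8, 44.6 and 24.1 CPM in wild type. These groups overlapped, and the gene did not pass (log2 fold change -0.32, 95% interval -1.02 to 0.38, edgeR adjusted p = 0.509). SmoM2 and ShhN IUE themselves differed, by a log2 difference of 2.06 ± 0.34 (edgeR adjusted p = 0.00362).

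Set against each other within a library, the apelin pair needs no scaling between libraries. ShhN IUE libraries 1 to 3 held 11.0, 3.69 and 8.36 Apln counts for each Aplnr count. The same ratio was 0.638, 0.853 and 0.635 in SmoM2 and 0.606, 0.199 and 0.386 in wild type. Each ShhN IUE library thus had a higher ratio than any of the other 6. A count ratio does not show which RNA was more abundant, because counts also depend on transcript length. By the deposited FPKM, Apln was above Aplnr in every ShhN IUE library and also in SmoM2 library 2. It was below Aplnr in SmoM2 libraries 1 and 3 and in every wild-type library.

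**Figure D3:**
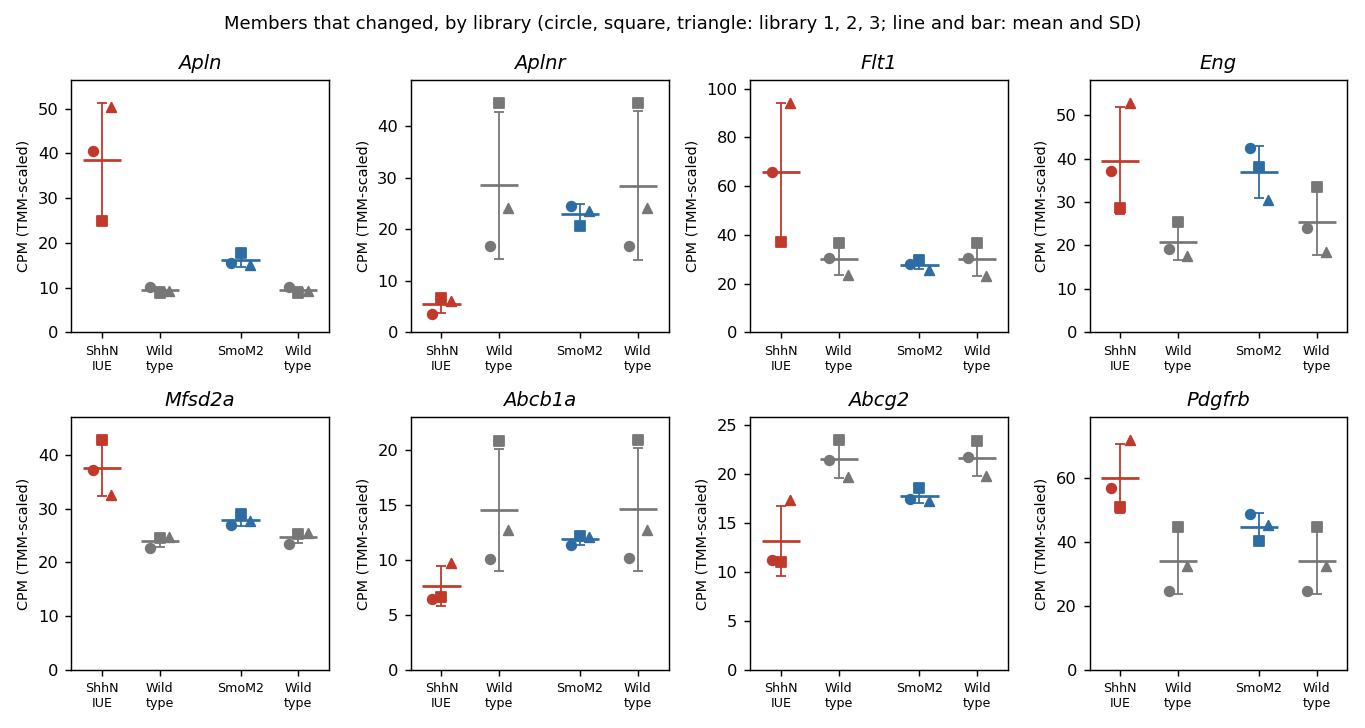
CPM (linear axes from 0) of the 8 members called in ShhN IUE, in each library of ShhN IUE, SmoM2 and the wild type beside each; symbols mark library 1, 2 and 3, lines the mean and bars the SD. ShhN IUE and wild-type points do not overlap for any of the 8, and SmoM2 points lie nearer to wild type for Apln, Aplnr and Flt1.

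Among the receptors, those of vascular endothelial growth factor behaved unequally. Flt1, which binds the growth factor tightly and also exists as a soluble decoy, had 65.9, 37.3 and 94.2 CPM in ShhN IUE and 30.4, 36.8 and 23.3 CPM in wild type. The groups were separated by only a narrow gap, between ShhN IUE library 2 and wild-type library 2. Its log2 fold change was 1.12 ± 0.32 (edgeR adjusted p = 0.0281), but leaving out library 1 or 3 of either group ended the call, at adjusted p from 0.0650 to 0.0953. The call also ended with replicate number as a block in edgeR (adjusted p = 0.0771). Leaving out both ShhN IUE library 3 and wild-type library 2 ended it as well (edgeR adjusted p = 0.0591). In SmoM2, Flt1 had 28.1, 29.6 and 25.7 CPM, against 30.3, 36.8 and 23.2 CPM in wild type, and did not pass (edgeR adjusted p = 0.664). SmoM2 lay below ShhN IUE in the joint fit, by a log2 difference of -1.25 ± 0.27 (edgeR adjusted p = 0.0131, and 0.0560 without SmoM2 library 3).

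Kdr, the main signalling receptor for the growth factor, had 74.1, 48.7 and 101 CPM in ShhN IUE and 37.4, 63.3 and 38.6 CPM in wild type. The groups overlapped, and it did not pass (log2 fold change 0.68, 95% interval 0.01 to 1.35, edgeR adjusted p = 0.106). It did pass with DESeq2 (adjusted p = 0.0382), and in edgeR once library 2 of either group was left out (adjusted p = 0.0379 for ShhN IUE and 0.0470 for wild type). The SmoM2 values were 47.6, 47.6 and 43.4 CPM, against 37.3, 63.4 and 38.4 CPM in wild type, a log2 fold change of -0.01. Flt4, the receptor known from lymphatic and tip cells, averaged 7.91 ± 1.28 CPM in ShhN IUE and 7.91 ± 1.42 CPM in wild type, and 6.89 ± 0.508 CPM in SmoM2 and 7.89 ± 1.44 CPM in wild type (SD, n = 3 each).

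Eng, or endoglin, a co-receptor for bone morphogenetic protein and transforming growth factor beta signals, rose in ShhN IUE. It had 37.2, 28.5 and 52.8 CPM there, against 19.1, 25.4 and 17.6 CPM in wild type, without overlap. The log2 fold change was 0.93 ± 0.24 (edgeR adjusted p = 0.0198), and the adjusted p was 0.0631 without wild-type library 1 and 0.0702 without wild-type library 3. With replicate number as a block in edgeR the adjusted p was 0.0539. In SmoM2 Eng averaged 36.9 ± 6.00 CPM and in wild type 25.4 ± 7.53 CPM (SD, n = 3 each), a log2 fold change of 0.54 that did not pass (edgeR adjusted p = 0.114). Its wild-type counts differ between the tables, so SmoM2 and ShhN IUE were not compared directly for this gene.

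The angiopoietin receptor Tek, which holds vessels quiescent, had 3.86, 5.76 and 9.02 CPM in ShhN IUE and 5.96, 16.1 and 8.79 CPM in wild type. The groups overlapped (log2 fold change -0.73, edgeR adjusted p = 0.209). Its SmoM2 values were 15.1, 12.7 and 13.2 CPM, against 5.89, 16.2 and 8.70 CPM in wild type, again with overlap (log2 fold change 0.41, edgeR adjusted p = 0.411). Its partner Tie1 averaged 15.2 ± 3.30 CPM in ShhN IUE and 19.8 ± 4.94 CPM in wild type (SD, n = 3 each; edgeR adjusted p = 0.227). SmoM2 and ShhN IUE did not overlap for Tek, with SmoM2 higher by a log2 difference of 1.13 that missed the threshold (95% interval 0.33 to 1.94, edgeR adjusted p = 0.0561).

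Barrier genes moved in both directions in ShhN IUE. Mfsd2a, a lipid transporter that restrains vesicle transport across the endothelium, had 37.2, 42.8 and 32.6 CPM in ShhN IUE, against 22.7, 24.5 and 24.7 CPM in wild type. Every ShhN IUE library was higher than every wild-type one, with a log2 fold change of 0.65 ± 0.13 (edgeR adjusted p = 0.00832). Unlike most members, it was lowest, not highest, in ShhN IUE library 3. SmoM2 libraries had 26.9, 29.1 and 27.6 CPM, against 23.3, 25.3 and 25.4 CPM in wild type; the groups did not overlap, yet the log2 fold change of 0.18 did not pass (edgeR adjusted p = 0.245). SmoM2 lay below ShhN IUE by a log2 difference of -0.44 ± 0.11 (edgeR adjusted p = 0.0259). It was no longer called when ShhN IUE library 1 or 2 or any SmoM2 library was left out, at adjusted p from 0.0708 to 0.0907.

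The efflux pumps went the other way. Abcg2, a pump for drugs and metabolites, had 11.2, 11.0 and 17.3 CPM in ShhN IUE, against 21.4, 23.5 and 19.7 CPM in wild type, without overlap. It fell by 0.71 ± 0.20 on the log2 scale (edgeR adjusted p = 0.0298). The P-glycoprotein gene Abcb1a had 6.46, 6.65 and 9.70 CPM in ShhN IUE, against 10.1, 20.8 and 12.7 CPM in wild type. Its groups stood apart by little, and it fell by 0.94 ± 0.30 (edgeR adjusted p = 0.0444). Both calls depended on single libraries. Neither held with replicate number as a block in edgeR, at adjusted p of 0.0548 for Abcg2 and 0.0667 for Abcb1a. Abcb1a was also not called without both ShhN IUE library 3 and wild-type library 2, at an edgeR adjusted p of 0.0560. Abcg2 was not called when ShhN IUE library 1 or 2 or any wild-type library was left out, at adjusted p from 0.0532 to 0.111. Abcb1a was not called when library 1 or 2 of ShhN IUE, or library 2 or 3 of wild type, was left out, at adjusted p from 0.0729 to 0.136, nor under upper quartile scaling, at 0.0572. In SmoM2 Abcg2 averaged 17.7 ± 0.707 CPM and in wild type 21.6 ± 1.79 CPM (SD, n = 3 each), with no overlap but no call (edgeR adjusted p = 0.122). Abcb1a averaged 11.9 ± 0.487 CPM in SmoM2 and 14.6 ± 5.61 CPM in wild type (SD, n = 3 each; edgeR adjusted p = 0.438).

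The tight junction gene Cldn5 had 35.9, 40.8 and 59.0 CPM in ShhN IUE and 34.1, 62.7 and 42.7 CPM in wild type, which overlapped almost fully (log2 fold change -0.04, 95% interval -0.63 to 0.55, edgeR adjusted p = 0.918). In SmoM2 it had 68.7, 51.6 and 49.3 CPM, against 33.9, 62.7 and 42.6 CPM in wild type (log2 fold change 0.28, edgeR adjusted p = 0.416). Slco1a4 had 0.763, 0.356 and 1.75 CPM in ShhN IUE and 0.363, 1.41 and 0.714 CPM in wild type, and 1.43, 1.31 and 1.34 CPM in SmoM2 and 0.361, 1.41 and 0.711 CPM in wild type. The groups overlapped in both comparisons, with wide 95% intervals from -1.32 to 1.68 in ShhN IUE and from -0.29 to 1.68 in SmoM2, where the gene passed only without wild-type library 2. The tight junction protein gene Ocln and the transporter gene Slco1c1 did not pass in either comparison, with log2 fold changes of -0.23 and -0.34 in ShhN IUE and 0.05 and 0.04 in SmoM2.

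Among the transcription factors, Sox17, which acts in arterial fate, had 1.98, 3.62 and 3.38 CPM in ShhN IUE, against 4.36, 5.63 and 5.33 CPM in wild type. Erg, an ETS factor that keeps endothelial identity, had 3.91, 2.73 and 4.95 CPM in ShhN IUE, against 5.08, 8.41 and 6.54 CPM in wild type. In both the groups did not overlap, but neither passed: the log2 fold changes were -0.77 and -0.79, with edgeR adjusted p of 0.0715 and 0.0732. Sox18 averaged 8.13 ± 0.900 CPM in ShhN IUE and 8.03 ± 2.91 CPM in wild type (SD, n = 3 each). Together with the 8 called members, Sox17 and Erg make 10 of 33 without overlap between ShhN IUE and wild type, where 49.4% of all genes tested did not overlap. In SmoM2 the number was 5 of 34, Apln, Mfsd2a, Abcg2, Sox17 and Vwf, where 40.1% of all genes did not overlap. In neither comparison was the members' share above that of all genes.

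Genes for endothelial surface and secreted proteins gave no call. Pecam1, the junctional adhesion molecule that marks all endothelium, had 22.6, 18.3 and 33.9 CPM in ShhN IUE and 18.6, 18.9 and 12.9 CPM in wild type (log2 fold change 0.57, 95% interval -0.01 to 1.14, edgeR adjusted p = 0.114). In SmoM2 it had 18.9, 19.2 and 18.9 CPM, against 20.3, 22.2 and 14.7 CPM in wild type. Those SmoM2 libraries lay almost on each other and inside the wild-type range. Emcn, a sialomucin of capillaries and veins, had a log2 fold change of 0.71 in ShhN IUE (edgeR adjusted p = 0.103) and 0.33 in SmoM2 (edgeR adjusted p = 0.325). Vwf, the clotting factor carrier, had 13.7, 10.2 and 46.5 CPM in ShhN IUE and 6.79, 25.2 and 17.9 CPM in wild type, with library 3 far above the other two of ShhN IUE. Without that library the log2 fold change of Vwf turned to -0.46, from 0.49 with it, and neither passed. Itm2a averaged 29.0 ± 10.4 CPM in ShhN IUE and 45.7 ± 19.7 CPM in wild type (SD, n = 3 each; edgeR adjusted p = 0.163). The adhesion gene Esam, the secreted factor gene Egfl7 and the surface antigen gene Ly6c1 had log2 fold changes of 0.23, -0.20 and 0.34 in ShhN IUE, none of which passed.

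Of the mural members, Pdgfrb rose in ShhN IUE. This receptor for platelet-derived growth factor B, by which pericytes are recruited, had 56.8, 51.0 and 71.9 CPM in ShhN IUE, against 24.6, 44.8 and 32.6 CPM in wild type. The groups did not overlap, and the log2 fold change was 0.82 ± 0.23 (edgeR adjusted p = 0.0261). Leaving out library 1 or 3 of either group ended that call as well, at adjusted p from 0.0578 to 0.0804. In SmoM2 it had 48.8, 40.2 and 45.4 CPM, against 24.5, 44.8 and 32.5 CPM in wild type, and did not pass (log2 fold change 0.40, edgeR adjusted p = 0.199). The ligand gene Pdgfb, made by endothelial cells, averaged 11.2 ± 1.27 CPM in ShhN IUE and 11.4 ± 1.19 CPM in wild type, and 9.72 ± 1.03 CPM in SmoM2 and 11.3 ± 1.18 CPM in wild type (SD, n = 3 each).

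The other 6 mural members gave no call in either comparison. Rgs5 had 49.7, 49.9 and 88.8 CPM in ShhN IUE and 48.9, 99.1 and 55.6 CPM in wild type (log2 fold change -0.11, 95% interval -0.84 to 0.61). SmoM2 libraries had 70.0, 66.6 and 64.5 CPM, against 48.7, 99.2 and 55.4 CPM in wild type, with the 3 SmoM2 libraries inside the wild-type range. Vtn had 17.1, 14.0 and 61.7 CPM in ShhN IUE and 13.7, 42.3 and 19.7 CPM in wild type, and 1 library of each group was higher than the sum of the other two. In SmoM2 it had 36.8, 31.7 and 31.8 CPM, against 13.6, 42.7 and 19.6 CPM in wild type (edgeR adjusted p = 0.470). Abcc9, the regulatory subunit of the pericyte potassium channel, had a log2 fold change near 0 in ShhN IUE (95% interval -0.31 to 0.30). It was among the most even members, at 22.6 ± 2.54 CPM in ShhN IUE and 22.7 ± 1.08 CPM in wild type (SD, n = 3 each). Acta2, at 2.80, 1.66 and 13.0 CPM in ShhN IUE and 0.726, 4.13 and 0.934 CPM in wild type, had the widest interval, from -0.46 to 3.59. The contractile protein gene Tagln and the aminopeptidase gene Anpep had log2 fold changes of -0.19 and -0.47 in ShhN IUE and -0.15 and -0.14 in SmoM2.

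In the joint fit, 28 members could be tested, and SmoM2 was higher than ShhN IUE for Aplnr and lower for Apln, Flt1 and Mfsd2a. These 4 are 14.3% of the members, where 16.5% of all 12349 genes tested were called, 8.45% higher in SmoM2 and 8.07% lower. The libraries of the 2 groups did not overlap for 11 of the 28, the 4 called ones and Kdr, Tek, Tie1, Slco1c1, Abcb1a, Itm2a and Pdgfrb, where 41% of all genes did not overlap. DESeq2 called 7 members here. The edgeR count became 7 when ShhN IUE library 3 or, separately, wild-type library 2 was left out, 6 when wild-type library 1 was, and 2 when SmoM2 library 3 was. Without both ShhN IUE library 3 and wild-type library 2, SmoM2 was lower for the same 3 members and higher for 10, Aplnr, Abcb1a, Abcg2, Itm2a, Tek, Slco1c1, Tie1, Vwf, Vtn and Rgs5. Those libraries were chosen because most members were highest in them. Leaving out ShhN IUE library 3 lowers that group for most members and so favours higher values in SmoM2. The added calls therefore do not bear on whether the groups differ. The count of all genes without both libraries, or with DESeq2, is not given for this comparison. The member counts at those settings thus say nothing particular about the members. For the other 24 a p that missed the threshold does not show that the 2 groups are alike; the median 95% interval reached 0.56 to either side of the log2 difference.

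The proximal promoters of 4 members that rose in ShhN IUE are shown because these members moved in one direction and because ETS factors such as Erg act through GGAA, the core found in many endothelial promoters. Each is the 250 bases before the annotated start in RefSeq (GRCm38.p6), 5′ to 3′ on the gene's strand, with GGAA and its reverse complement TTCC in capitals. They lie at chrX:48034854-48035103 (minus strand) for Apln, chr5:147726012-147726261 (minus) for Flt1, chr2:32646345-32646594 (plus) for Eng and chr4:122961189-122961438 (minus) for Mfsd2a.
Apln: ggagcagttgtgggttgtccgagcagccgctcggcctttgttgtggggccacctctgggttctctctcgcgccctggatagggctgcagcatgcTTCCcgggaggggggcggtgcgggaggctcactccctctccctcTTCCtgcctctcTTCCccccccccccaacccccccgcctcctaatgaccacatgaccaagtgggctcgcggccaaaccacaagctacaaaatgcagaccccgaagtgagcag
Flt1: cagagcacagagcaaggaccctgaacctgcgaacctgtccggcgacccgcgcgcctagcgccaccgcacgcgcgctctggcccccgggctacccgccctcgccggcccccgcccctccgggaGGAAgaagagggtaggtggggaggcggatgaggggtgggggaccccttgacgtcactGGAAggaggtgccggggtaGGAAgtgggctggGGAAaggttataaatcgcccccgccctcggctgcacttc
Eng: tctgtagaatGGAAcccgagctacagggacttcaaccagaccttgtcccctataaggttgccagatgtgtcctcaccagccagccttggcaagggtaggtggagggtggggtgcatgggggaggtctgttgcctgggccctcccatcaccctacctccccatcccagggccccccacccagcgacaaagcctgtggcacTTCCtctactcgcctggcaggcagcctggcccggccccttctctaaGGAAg
Mfsd2a: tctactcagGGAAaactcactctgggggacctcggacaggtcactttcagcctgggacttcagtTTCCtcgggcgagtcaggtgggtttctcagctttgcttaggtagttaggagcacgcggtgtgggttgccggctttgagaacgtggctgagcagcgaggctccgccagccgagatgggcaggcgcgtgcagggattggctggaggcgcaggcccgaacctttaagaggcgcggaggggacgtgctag
The core occurred 3 times in Apln, 4 times in Flt1, 3 times in Eng and 2 times in Mfsd2a, and in 23 of the 24 members with a promoter in the table. It is so short that 93.4% of all 32851 promoters of the same length hold it on either strand, so its presence says nothing particular about the members. The longer ETS form CCGGAAG was in none of the 24, against 6.91% of all promoters. ACGTG, the core of the hypoxia response element, was in the window of Mfsd2a alone, 2 times, against 16.6% of all promoters. The GLI motif TGGGTGGTC was in none of the 24, against 0.225% of all. A match is a description of letters in the window, and no match says only that they are not in it.

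Of 33 other endothelial genes tested, 3 rose (Podxl, S1pr1 and Slc2a1) and 4 fell (Slc7a1, Slc7a5, Palmd and Foxq1) in ShhN IUE, where 33.3% of all genes were called, with a median log2 fold change of -0.08. Cdh5, the cadherin of endothelial junctions, had 14.1, 15.4 and 41.3 CPM in ShhN IUE and 16.6, 38.6 and 21.3 CPM in wild type (edgeR adjusted p = 0.864). Robo4, an endothelial guidance receptor, had 13.3, 9.67 and 16.4 CPM in ShhN IUE and 9.85, 9.22 and 9.50 CPM in wild type (edgeR adjusted p = 0.131). In SmoM2 both again failed to pass, at edgeR adjusted p of 0.533 and 0.355. Podxl, a sialomucin that opens vessel lumens, rose in both, by a log2 fold change of 0.88 ± 0.13 in ShhN IUE (edgeR adjusted p = 0.00236) and 0.58 ± 0.10 in SmoM2 (edgeR adjusted p = 0.00577). S1pr1, the sphingosine phosphate receptor, also rose in both, by 0.74 ± 0.17 and 0.73 ± 0.14 (edgeR adjusted p = 0.0130 and 0.00883). The amino acid transporter genes Slc7a1 and Slc7a5 fell in ShhN IUE by 0.70 ± 0.11 and 0.49 ± 0.08 (edgeR adjusted p = 0.00308 and 0.00439). Slc7a5 also fell in SmoM2, by 0.41 ± 0.08 (edgeR adjusted p = 0.00964). In SmoM2 the list gave 2 rises and 3 falls among 33, where 18.9% of all genes were called. Podxl, Slc7a1, Slc7a5 and Slc2a1 are also used by neural cells. In bulk cortex no change in this list, that of S1pr1 included, can be placed in the endothelium. The list's count in ShhN IUE was 4 without ShhN IUE library 1, and its count in SmoM2 was 3 without SmoM2 library 2 or 3.

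Of 19 other mural genes tested, 7 rose and none fell in ShhN IUE, where 16.1% of all genes rose, with a median log2 fold change of 0.66, beside a median of -0.0025 for the 7 mural members. The calls with the smallest adjusted p were Cspg4, Myl9, Mcam and Kcnj8. Cspg4, a proteoglycan of pericytes that oligodendrocyte precursors also make, rose by 0.74 ± 0.14 (edgeR adjusted p = 0.00564). Myl9, the smooth muscle myosin light chain, had 9.71, 9.38 and 20.8 CPM in ShhN IUE, against 3.11, 6.22 and 2.97 CPM in wild type, a log2 fold change of 1.69 ± 0.41 (edgeR adjusted p = 0.0166). Mcam and Kcnj8, an adhesion molecule and the channel partner of Abcc9, rose by 1.05 ± 0.28 and 1.198 ± 0.33 (edgeR adjusted p = 0.0212 and 0.0260). The count depended on single libraries. Leaving out ShhN IUE library 1 or 3 brought it to 3, wild-type library 2 to 4, and wild-type library 1 or 3 to 1. In SmoM2 none of 18 passed in edgeR, with 2 in DESeq2. The difference between the groups was tested only gene by gene. In the joint fit 3 of 17 were lower in SmoM2 than in ShhN IUE, where 8.07% of all genes were lower. That count was 0 without ShhN IUE library 1 or SmoM2 library 2, 1 without SmoM2 library 3 and 6 without ShhN IUE library 2.

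Among the genes for vascular growth factors, guidance and Notch signals, 8 of 30 tested rose and 3 fell in ShhN IUE, with a median log2 fold change of 0.33. Of all genes tested there, 33.3% were called, 16.1% higher and 17.2% lower. Vegfa, the main growth factor for vessels, had 201, 103 and 291 CPM in ShhN IUE, against 75.5, 58.3 and 49.5 CPM in wild type. All ShhN IUE libraries were higher, with a log2 fold change of 1.70 ± 0.34 (edgeR adjusted p = 0.00794). In SmoM2 Vegfa had 49.6, 50.5 and 50.6 CPM, against 71.6, 57.6 and 53.4 CPM in wild type, and did not pass (log2 fold change -0.28, edgeR adjusted p = 0.149). SmoM2 lay below ShhN IUE by a log2 difference of -1.99 ± 0.29 (edgeR adjusted p = 0.00233). ShhN IUE library 2 was the lowest of its group for Vegfa, as it was for 21 of the 34 members, Apln, Flt1, Kdr and Eng among them.

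Angpt2, which loosens vessels by blocking Tek, had 16.4, 1.90 and 23.7 CPM in ShhN IUE and 3.42, 4.27 and 2.42 CPM in wild type. Libraries 1 and 3 were above all wild-type libraries and library 2 below them, and the log2 fold change of 2.05 ± 0.73 missed the threshold (edgeR adjusted p = 0.0613). In SmoM2 Angpt2 had 3.71, 2.54 and 2.99 CPM, against 3.41, 3.64 and 2.41 CPM in wild type. Adm, the vasoactive peptide adrenomedullin, had 6.41, 4.33 and 11.1 CPM in ShhN IUE, against 1.92, 1.36 and 1.32 CPM in wild type, a log2 fold change of 2.24 ± 0.39 (edgeR adjusted p = 0.00460). It was not called in SmoM2 (log2 fold change -0.72, edgeR adjusted p = 0.0988), and SmoM2 lay below ShhN IUE by a log2 difference of -2.95 ± 0.35 (edgeR adjusted p = 0.000868).

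The genes Notch1, Plxnd1 and Hey1 of this list changed the same way in both groups. Notch1 rose, with log2 fold changes of 1.40 ± 0.12 in ShhN IUE and 0.95 ± 0.09 in SmoM2 (edgeR adjusted p = 0.000606 and 0.000588). Plxnd1, a semaphorin receptor, fell by 1.13 ± 0.15 and 1.77 ± 0.09 (edgeR adjusted p = 0.00175 and 8.1e-05). The Notch effector gene Hey1 fell by 0.85 ± 0.14 and 1.28 ± 0.12 (edgeR adjusted p = 0.00383 and 0.000495). All of them are also used by neural progenitors or cortical neurons. The list gave 3 rises, with Jag1 and Nrp1 beside Notch1, and 3 falls, with Ackr3 beside Plxnd1 and Hey1, among 30 in SmoM2. Of all genes in SmoM2, 9.59% rose and 9.29% fell. Between SmoM2 and ShhN IUE, 1 of 25 was higher and 7 were lower in SmoM2, which became 4 without SmoM2 library 1 or 2. In that joint fit 8.45% of all genes were higher in SmoM2 and 8.07% lower.

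**Figure D4:**
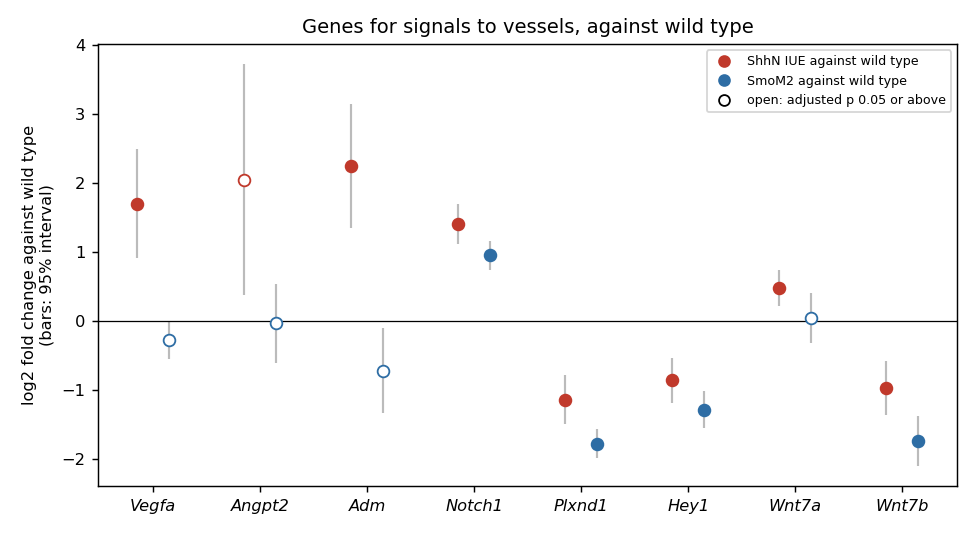
Log2 fold change against wild type (y axis) of 8 genes for signals to vessels in ShhN IUE and SmoM2, with 95% intervals as bars; open points did not pass. Vegfa and Adm are well above 0 in ShhN IUE and below it, not passing, in SmoM2, while Plxnd1, Hey1 and Wnt7b are below 0 in both.

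WNT7 ligands and norrin, with their receptors, switch on the barrier programme in brain endothelium. Wnt7b had 175, 156 and 126 CPM in ShhN IUE, against 346, 235 and 312 CPM in wild type, and 103, 84.5 and 79.9 CPM in SmoM2, against 344, 235 and 311 CPM in wild type. It fell in both groups without overlap, by 0.97 ± 0.17 in ShhN IUE and 1.73 ± 0.16 in SmoM2 (edgeR adjusted p = 0.00483 and 0.00048), and SmoM2 lay below ShhN IUE by a log2 difference of -0.78 ± 0.17 (edgeR adjusted p = 0.0111). Wnt7a averaged 31.9 ± 1.96 CPM in ShhN IUE and 22.9 ± 0.871 CPM in wild type (SD, n = 3 each) and rose there by a log2 fold change of 0.48 ± 0.11 (edgeR adjusted p = 0.0139). In SmoM2 its log2 fold change was 0.05 (edgeR adjusted p = 0.863).

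Among the receptor genes of this list, the co-receptor gene Lrp5 rose and the norrin receptor gene Fzd4 fell in both groups. In bulk cortex no change in this list, that of Wnt7b included, can be placed in a cell type. Lrp5 had log2 fold changes of 1.24 ± 0.18 in ShhN IUE and 0.73 ± 0.18 in SmoM2 (edgeR adjusted p = 0.00235 and 0.0240). Fzd4 fell by 0.89 ± 0.22 and 1.16 ± 0.19 (edgeR adjusted p = 0.0169 and 0.00519). Ndp, the norrin gene, rose by 0.80 ± 0.26 and 1.55 ± 0.22 (edgeR adjusted p = 0.0448 and 0.00287). Adgra2, the endothelial co-activator for WNT7, had 7.57, 14.7 and 20.04 CPM in ShhN IUE and 9.44, 30.4 and 18.4 CPM in wild type, and did not pass in either comparison (edgeR adjusted p = 0.457 and 0.497). In all, 3 of 19 rose and 2 fell in ShhN IUE, and 2 rose and 3 fell in SmoM2. Of all genes tested, 33.3% were called in ShhN IUE and 18.9% in SmoM2. The ShhN IUE count of 5 became 2 when its library 1 was left out and 3 when its library 2 was, and the SmoM2 count of 5 was 3 without SmoM2 library 1 or 3. The median log2 fold changes were -0.24 and 0.0060.

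The vascular basement membrane list gave no call among 12 in ShhN IUE in edgeR, but 3 rises without ShhN IUE library 2, 2 without both ShhN IUE library 3 and wild-type library 2, and 2 in DESeq2. In SmoM2 it gave 2 rises, Sparcl1 at 0.80 ± 0.14 and Sparc at 1.00 ± 0.23 (edgeR adjusted p = 0.00665 and 0.0186), both also made by glia; the count was 1 without SmoM2 library 1 or 3 or wild-type library 3. Microglia, which sit beside vessels, had 2 rises among 13 rows in ShhN IUE, 6 without wild-type library 2 and 1 without any other single library except ShhN IUE library 2. Aif1 had 7.73, 4.93 and 11.3 CPM there, against 1.35, 1.68 and 1.21 CPM in wild type, and Tyrobp averaged 3.56 ± 0.463 CPM in ShhN IUE and 1.29 ± 0.727 CPM in wild type (SD, n = 3 each). The summed microglial level was 75.1 to 107 CPM in ShhN IUE and 38.6 to 80.2 CPM in wild type, so the ranges overlapped, and 76.5 to 101 CPM in SmoM2 and 37.8 to 77.6 CPM in wild type. Of the 12 meningeal and fibroblast genes, none passed in ShhN IUE and 1 rose in SmoM2; without ShhN IUE library 3, 5 fell in ShhN IUE. Of 5 blood genes tested, none passed in ShhN IUE and 2 rose in SmoM2. All 12 cell cycle genes rose in both groups. Of all genes tested, 16.1% rose and 17.2% fell in ShhN IUE, and 9.59% rose and 9.29% fell in SmoM2. Whether the mix of cells sets any of the vessel genes' values was not tested.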

How the data were processed

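RNA of dissected cortex was measured by bulk sequencing in 9 libraries, grouped by the sample titles. The authors deposited 2 tables, each with gene counts and FPKM per library and a q-value for their own comparison, per the file headers. Builds (GRCm38.p4, mm10) and tools (StringTie, HISAT2, edgeR) come from the submitters' processing notes, without versions; strand and shared reads are not given in the sources used here. The deposited FPKM were used for levels between genes only. In the authors' deposited table, 8 members of ShhN IUE and 1 of SmoM2 had a q-value under 0.05. Their own call column was narrower. It marked only Apln and Flt1 as up and Aplnr as down in ShhN IUE, and no member in SmoM2.

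Deposited counts went into edgeR 4.0.16 (R 4.3.3) and its two-sided quasi-likelihood F test, with TMM scaling and filterByExpr by group, within each table and over all its genes, with Benjamini-Hochberg adjustment at 0.05. CPM are per 1e+06 counts after TMM scaling. SmoM2 and ShhN IUE were compared in 1 fit of 9 libraries, taking the mean of both tables' wild-type counts, over the 16195 of 22268 shared genes whose summed wild-type counts, each with 5 added, agreed within 0.1 (log2); CPM of that fit are higher and are not printed. Scripts were tested on simulated data. Of simulated 2-fold changes, 45.9% were recovered for ShhN IUE against wild type, 67% for SmoM2 against wild type and 58% for SmoM2 against ShhN IUE. Of the calls in these simulations, 9.35%, 6.79% and 6.54% were false, each above the 5% that the threshold allows. Alternatives were RLE and upper quartile scaling, no filter, a filter of 1 CPM in 3 libraries, DESeq2 1.42.0, a replicate block, each library left out, agreeing genes only and an agreement within 0.2. Leaving out ShhN IUE library 3 and wild-type library 2 together was chosen after seeing the data, because most members were highest in them. Depth limits low members: no library had fewer than 5 counts of a member, and intervals are 95% intervals of the fit.

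The members, the lists around them and the tests were chosen with earlier results of these data known. Named with values by library are members called against wild type and Pecam1, Cldn5, Kdr, Flt1, Tek, Slco1a4, Mfsd2a, Pdgfrb, Rgs5 and Vtn; of each list, up to 4 called genes with the smallest adjusted p and a mean of at least 1 CPM, and Cdh5, Robo4, Vegfa, Angpt2, Adgra2, Wnt7a and Wnt7b. Other genes named were chosen after their values were seen. Promoter sequences are from RefSeq, GRCm38.p6, where 24 of 34 members matched by symbol.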

Additional observations from a re-analysis of the deposited data

How the results depend on the processing

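Among the 8 members called in ShhN IUE, Apln (log2 fold change 1.75 to 2.27), Aplnr (-2.65 to -1.91) and Mfsd2a (0.55 to 0.77) were called under all 14 alternatives; Apln in SmoM2 was called under all 13 (0.71 to 0.83). No direction of a called member reversed. The count of members called, 8 in ShhN IUE, was 4 with the replicate block and 3 to 7 with 1 library left out, and that of all genes was 3251 to 4624 with 1 library left out and 3258 without ShhN IUE library 3 and wild-type library 2. In SmoM2 the count of members, 1, was 2 with the replicate block and 1 to 8 with 1 library left out, and that of all genes was 1334 to 3010. Between SmoM2 and ShhN IUE the count of members, 4, was 7 with DESeq2, 13 without ShhN IUE library 3 and wild-type library 2, and 2 to 7 with 1 library left out. With 1 library left out, that of all genes was 834 to 2336. For DESeq2 and for both libraries left out, the count of all genes is not given here, so 7 and 13 say nothing particular about the members. The cause of these shifts in counts was not tested. Replicate numbers are shared by the groups, but same-numbered libraries did not deviate together (correlations of 0.28, -0.32 and -0.06 between ShhN IUE and wild type, and of -0.12, -0.17 and 0.06 between SmoM2 and wild type), so the numbers were not taken as pairs; with the replicate block, 3962, 2468 and 1499 genes were called in the 3 comparisons. With 3 libraries a group, the median 95% interval of a member reached 0.67 (ShhN IUE) and 0.50 (SmoM2) to either side.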
